A study of Homo sapiens with 14 samples.

Results

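The difference between 2 myeloma cell lines in their response to ZBP1 hairpin 1 (shRNA1) was measured by poly(A) RNA sequencing. It was built from 8 of the series' 14 libraries, in 4 groups of 2. These were MM1.S cells with a scramble control hairpin, MM1.S cells with shRNA1 against ZBP1, H929 cells with the scramble control that belongs to shRNA1, and H929 cells with shRNA1. The groups were taken from the sample titles. For each gene the mean log2 value of the scramble libraries was subtracted from that of the shRNA1 libraries within each line, and the H929 result was then subtracted from the MM1.S result. This quantity is called the line difference. It is above 0 where the level moved higher with shRNA1 in MM1.S than in H929, relative to each line's own control, and below 0 in the opposite case.

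MM1.S and H929 are established lines grown from human multiple myeloma, a cancer of plasma cells. All cells were kept in RPMI 1640 with 10% FBS and received a lentivirus, so the controls carry a vector too. The time between transduction and harvest is not given in the sources used here. Whether both libraries of a group stem from independent cultures is not given in the sources used here, so each p-value reflects library-to-library spread that can be purely technical. One scramble pair serves both hairpins in MM1.S, while H929 has a scramble pair for each hairpin. In bulk RNA, fewer cells of a type and less RNA per cell cannot be told apart.

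ZBP1 is an interferon-inducible sensor of left-handed nucleic acids. In many cells it passes a signal through RIPK3 to MLKL, which kills the cell by necroptosis. Interferons act through factors such as STAT2 and IRF9, which bind the interferon-stimulated response element and switch on the interferon-stimulated genes. In plasma cells, IRF4, PRDM1 and XBP1 keep up the secretory programme and survival, and IRF4 belongs, like IRF9, to the family of interferon regulatory factors.

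The 8 libraries held between 15926867 and 28419331 reads assigned to genes. The labels were checked against marker genes in CPM, a gene's reads scaled to a common library total. MAF, the oncogene activated in MM1.S, averaged 2010 CPM in MM1.S and 218 CPM in H929. FGFR3, activated in H929, averaged 0.41 and 751 CPM, and the kappa light chain gene IGKC 0.17 and 6950 CPM in the same order. The lambda light chain genes IGLC2 and IGLC3, taken as MM1.S markers, were low in both lines, with 7.56 and 1.23 CPM in MM1.S. The summed level of 10 plasma cell markers lay between 7286 and 7776 CPM in MM1.S scramble and between 5767 and 6126 CPM in MM1.S shRNA1, and between 8592 and 8630 CPM and 7985 and 8120 CPM in H929. Of 43 markers of cell types outside the B lineage, 8 reached 5 CPM in some library (CD3E, NCAM1, ITGAM, COL1A1, KRT8, KRT18, PECAM1 and HBB). Sums whose arms did not overlap included those of monocytes in MM1.S (1.80 to 3.06 CPM in scramble, 19.9 to 24.6 CPM in shRNA1, nearly all ITGAM) and of fibroblasts and endothelium in H929 (1.48 to 1.49 and 29.8 to 35.0 CPM, mostly COL1A1; 14.1 to 17.5 and 56.4 to 86.5 CPM, mostly PECAM1). In H929 the epithelial sum went from 14.4 to 17.0 CPM in scramble to 27.6 to 29.2 CPM in shRNA1, the NK cell sum from 163 to 182 CPM to 119 to 128 CPM and the monocyte sum from 7.28 to 9.35 CPM to 3.89 to 4.04 CPM. The erythroid sum in MM1.S went from 6.97 to 7.67 CPM to 3.32 to 4.20 CPM. Their part in the results below was not tested.

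ZBP1 itself (ENSG00000124256, chromosome 20, 57603846 to 57620576, minus strand, GRCh38) fell in both lines, and further in MM1.S. Its level went from 3357 and 3551 to 539 and 637 in MM1.S and from 4269 and 4513 to 1659 and 1888 in H929, in normalized reads, which are reads divided by the library's size factor. Size factors were set separately for each line's table, so levels are compared within a line. No shRNA1 library overlapped a scramble library in either line. On the log2(normalized value + 1) scale used for every difference below, ZBP1 changed by -2.56 in MM1.S and -1.31 in H929, a line difference of -1.25 ± 0.17 (adjusted p = 2.61e-04), with the standard error from the limma fit over 7 groups of 2 libraries and p-values adjusted over 20370 genes by Benjamini-Hochberg. The same fields hold for every value below that has this form. In the authors' deposited tables the log2 fold change of ZBP1 was -2.54 in MM1.S and -1.24 in H929. The part that this unequal knockdown has in the line differences below was not tested.

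Across all genes tested, 2118 (10.4%) had a line difference above 0 and 2248 (11%) one below 0 at an adjusted p under 0.05, together 4366 (21.4%). Of these, 1257 (6.17%) and 1251 (6.14%) were at least 2-fold. The median line difference of all genes was -0.02. Within the lines, shRNA1 raised 3731 genes (18.3%) and lowered 4278 (21%) in MM1.S, 8009 (39.3%) in all, and raised 3971 (19.5%) and lowered 4260 (20.9%) in H929, 8231 (40.4%) in all. The libraries of the 2 arms did not overlap for 12997 genes (63.8%) in MM1.S and 14630 genes (71.8%) in H929. Scaling by TMM over all genes moved the median of all genes up by 0.14 and the calls to 2813 above and 1689 below 0, so that 62.5% of the called genes lay above 0 in place of 48.5%. A median line difference of a gene list is therefore read against that shift. Likewise, each count of list members called above or below 0 is read against the 10.4% and 11% of all genes.

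The called genes came from several kinds of response. Among the genes above 0, 714 rose in MM1.S with no call in H929, 727 fell in H929 with no call in MM1.S, 268 (1.32% of genes tested) rose in MM1.S and fell in H929, 150 rose in both, 207 fell in both and 52 were called in neither line. Among the genes below 0, 716 fell in MM1.S with no call in H929, 802 rose in H929 with no call in MM1.S, 250 (1.23%) fell in MM1.S and rose in H929, 268 fell in both, 163 rose in both and 49 were called in neither. Genes called the same way in both lines were more numerous than those called in opposite directions. They numbered 1707 (8.38%) higher and 2319 (11.4%) lower, whether or not their sizes differed.

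**Figure D1:**
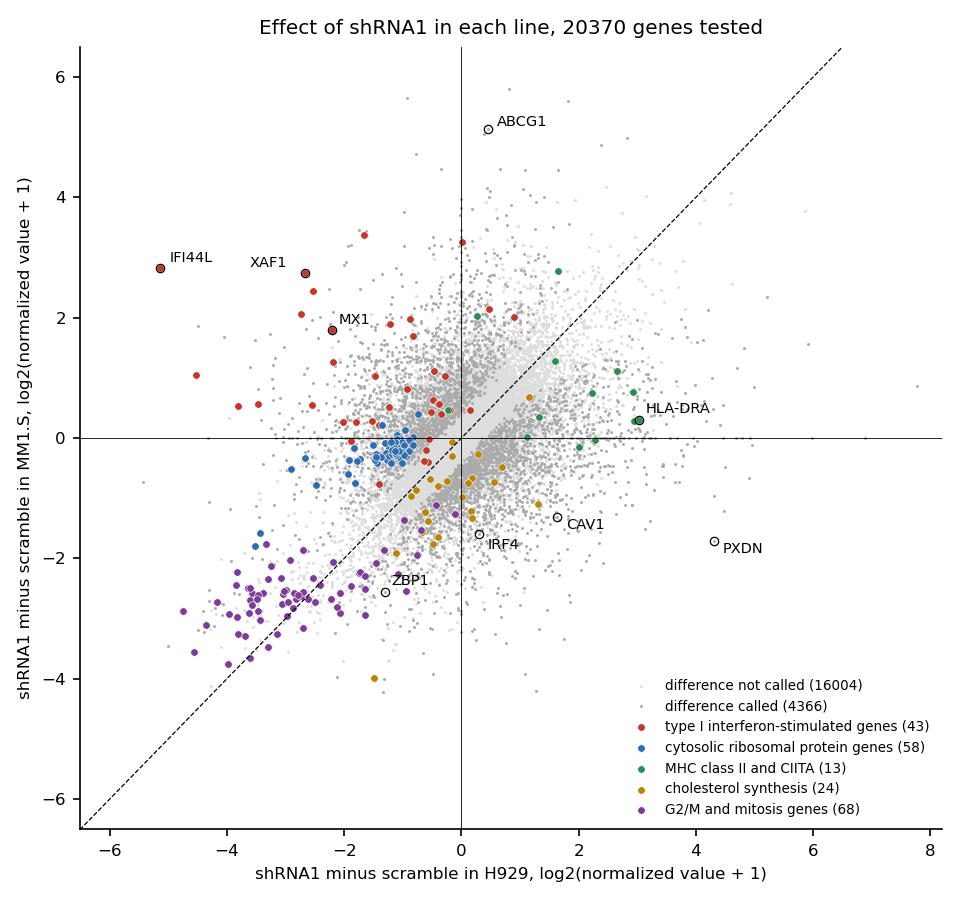
shRNA1 minus scramble in H929 (horizontal) against the same in MM1.S (vertical), in log2(normalized value + 1), each point 1 of the 20370 genes tested, with 5 gene lists in colour and the dashed line where both effects are equal. The 268 genes that rose in MM1.S and fell in H929 lie at the upper left, among them XAF1, MX1 and IFI44L, and PXDN and CAV1 lie in the lower right.

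Type I interferon-stimulated genes had line differences above 0, with rises in MM1.S and falls in H929. Of 43 members tested, 29 had a line difference called above 0 and 0 one called below 0, and the list median was 1.75. All 43 had a value above 0. The difference had parts in both lines: 22 members rose and 2 fell in MM1.S (median 0.56), whereas 1 rose and 30 fell in H929 (median -1.22), and 15 members were called up in MM1.S and down in H929. The median over all genes was 0 in each line. The members lowered in MM1.S were BST2 and HERC5, and the member raised in H929 was RSAD2.

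Short promoter stretches are shown for a sequence feature that part of these genes hold. The response element was searched as GAAA, any 2 bases, GAAA on both strands, in the 250 bases before and 50 after each RefSeq gene start (GRCh38.p14; 35116 promoters, counted once for each of 27305 symbols). It is 1 of 10 motifs searched, of which 2 are shown, chosen after the shares were seen. It lay in 3.65% of all promoters, in 3.04% of the promoters of tested genes, in 5.65% of those called above 0 and in 1.8% of those called below 0. Within the list, 21 of 33 matched promoters held it, 14 of 21 among the called members and 7 of 12 among the members not called. The match is a description of the letters and not a binding site. Stretches of 4 called members, with 1 match each in capitals, are followed by that of BST2, a list member without a called line difference. Upstream of their starts these promoters held 2 (IFI44L), 3 (IFI6), 2 (DDX60), 2 (ISG15) and 2 (BST2) matches. In ISG15 and BST2 a further match begins in the lower-case letters before the capitals.
IFI44L: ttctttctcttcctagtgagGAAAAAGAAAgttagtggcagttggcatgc
IFI6: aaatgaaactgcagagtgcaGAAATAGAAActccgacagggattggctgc
DDX60: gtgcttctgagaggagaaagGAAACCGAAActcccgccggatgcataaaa
ISG15: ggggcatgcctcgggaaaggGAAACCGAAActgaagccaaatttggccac
BST2: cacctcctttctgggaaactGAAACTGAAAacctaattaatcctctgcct
These lie at chr1:78620355-78620404 on the plus strand, chr1:27672256-27672305 on the minus strand, chr4:168318776-168318825 on the minus strand, chr1:1013370-1013419 on the plus strand and chr19:17405725-17405774 on the minus strand, each printed 5′ to 3′ along its gene.

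IFI44L, a guanosine triphosphate-binding-like protein induced by interferon (chromosome 1, 78619922 to 78646145), had the largest line difference in the list. It went from 5.71 and 3.56 to 50.8 and 29.1 in MM1.S and from 768 and 918 to 24.8 and 21.2 in H929, a line difference of 7.97 ± 0.47 (adjusted p = 1.25e-06). The shRNA1 libraries were the higher ones in MM1.S and the lower ones in H929, and the arms did not overlap in either line. Its MM1.S controls held few reads, so the size of the MM1.S part depends on the 1 added before the log. MX1, a dynamin-like GTPase that blocks incoming viral ribonucleoproteins (chromosome 21, 41420304 to 41459214), went from 620.0 and 639.6 to 2187 and 2209.9 in MM1.S and from 7749 and 11587 to 1829 and 2291 in H929, a line difference of 4.01 ± 0.26 (adjusted p = 2.01e-06). Its nuclear-pore relative MX2 went from 59.0 and 80.2 to 294 and 285 in MM1.S and from 233 and 367 to 36.4 and 50.6 in H929, a line difference of 4.80 ± 0.40 (adjusted p = 9.37e-06). In both MX genes the shRNA1 libraries lay above the controls in MM1.S and below them in H929. XAF1, which counters the caspase inhibitor XIAP (chromosome 17, 6755447 to 6775647), went from 24.8 and 43.7 to 248 and 204 in MM1.S and from 496 and 576 to 74.4 and 93.9 in H929, a line difference of 5.40 ± 0.41 (adjusted p = 6.13e-06), the highest among genes with at least 5 CPM in both lines. IFI6, a mitochondrial and endoplasmic reticulum protein that limits apoptosis and flavivirus replication, went from 198 and 185 to 258 and 309 in MM1.S and from 6239 and 7298 to 605 and 609 in H929, a line difference of 4.03 ± 0.25 (adjusted p = 1.25e-06). For IFI6 the H929 arm carried most of the difference, -3.47 against 0.56 in MM1.S.

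The transcription factors of the pathway had smaller line differences. Members of lists named here and below outside the rule for named genes were chosen after their values were seen. IRF9, the DNA-binding part of the interferon-activated complex, went from 43.8 and 45.4 to 75.7 and 64.0 in MM1.S and from 205 and 202 to 151 and 139.9 in H929, a line difference of 1.11 ± 0.25 (adjusted p = 0.00767). It rose in MM1.S (0.63) and fell in H929 (-0.48), and IRF7, the factor that amplifies interferon genes, had a line difference of 1.58 ± 0.27 (adjusted p = 0.00132). STAT2 gave 0.32 ± 0.19 (adjusted p = 0.244), which was not called. Among the effectors, ISG15, a ubiquitin-like modifier, went from 72.4 and 87.3 to 119.8 and 115 in MM1.S and from 3774 and 5314 to 718 and 817 in H929, a line difference of 3.10 ± 0.24 (adjusted p = 6.13e-06). OAS1, OAS2 and OAS3, which make the activator of RNase L, had line differences of 1.80, 1.63 and 1.84, each with a fall in H929 and no call in MM1.S. RSAD2, the antiviral enzyme viperin, moved differently, since it rose in both lines, 2.02 in MM1.S and 0.90 in H929, with a line difference of 1.12 ± 0.42 (adjusted p = 0.077).

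**Figure D2:**
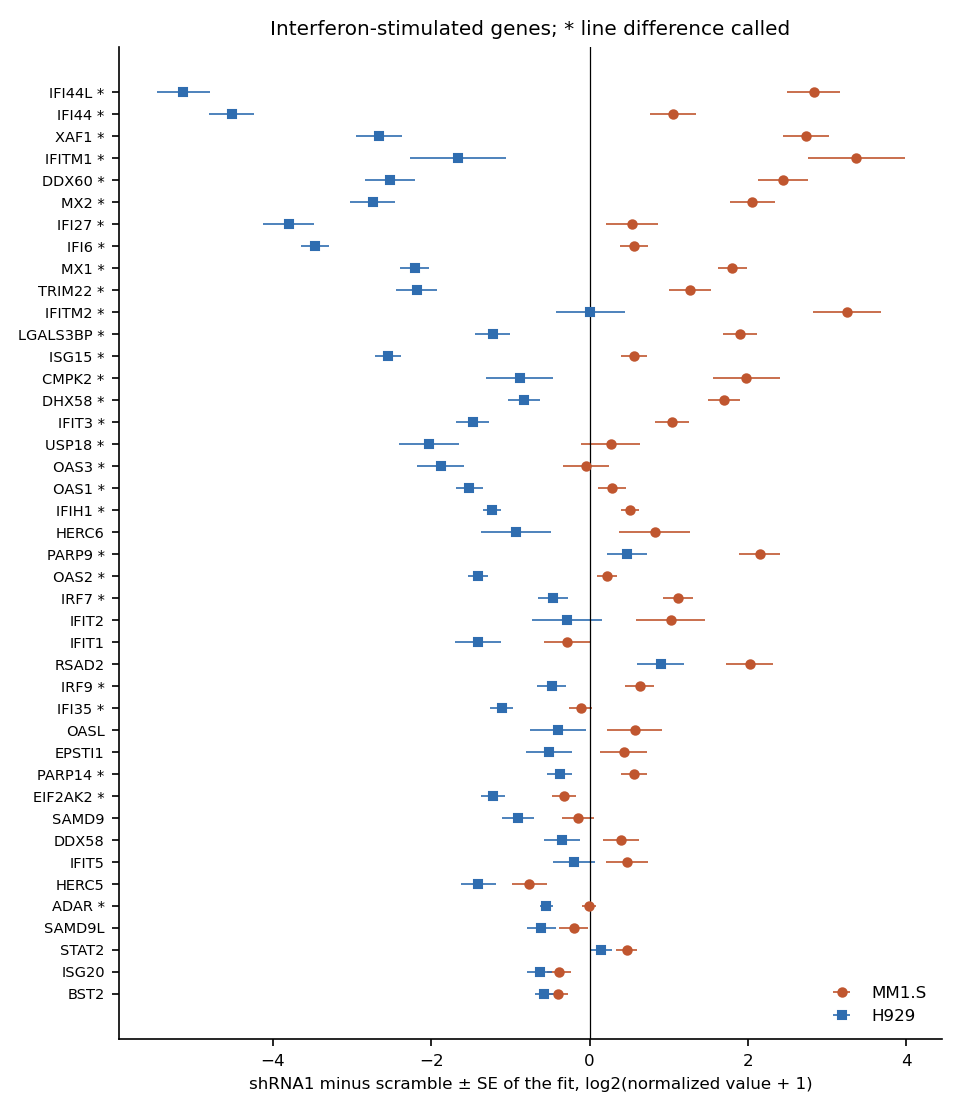
Interferon-stimulated genes, 42 of the 43 tested, each with its shRNA1 effect in MM1.S and in H929 in log2(normalized value + 1). The MM1.S point lies above the H929 point for each gene drawn, bars are standard errors of the fit and a star marks a called line difference.

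Among 25 nucleic acid sensing genes, 9 had a line difference called above 0 and 3 below 0 (median 0.33), against 10.4% and 11% of all genes. The members below 0 were ZBP1 itself, the hairpin's target, RNASEH2B and MB21D1. Of those above 0, DHX58, IFIH1 and IRF7 were also counted in the interferon list. In the fit with the replicate number as a block in MM1.S (replicate block), 12 were above and 5 below 0. Of all 20370 genes, that fit called 3069 above and 3333 below 0, and later counts with replicate block are read against these. Of the RIG-I-like RNA sensors, IFIH1 and DHX58 were called above 0. IFIH1, which binds long double-stranded RNA, went from 1858 and 1639 to 2686 and 2308 in MM1.S and from 1159 and 1302 to 498 and 544 in H929, a line difference of 1.75 ± 0.16 (adjusted p = 1.94e-05), and DHX58, its regulator, went from 81.9 and 106 to 293 and 315 in MM1.S and from 393 and 604 to 247 and 303 in H929, a line difference of 2.53 ± 0.29 (adjusted p = 8.65e-05). Both rose in MM1.S and fell in H929. The DNA sensor cGAS (MB21D1 in the tables) had a line difference of -0.62 ± 0.17 (adjusted p = 0.0207), with falls in both lines. The kinase TBK1 (-0.10 ± 0.23 (adjusted p = 0.794)) and its substrate IRF3 (0.15 ± 0.18 (adjusted p = 0.586)) were not called.

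ZBP1's partners in necroptosis gave few called line differences. RIPK3, the kinase ZBP1 engages, was read 0 times in all 4 H929 libraries, so the line difference has no H929 part. In MM1.S it went from 80.0 and 97.1 to 141 and 158 normalized reads, with an effect of 0.75 that was not called (adjusted p = 0.0914). In the authors' deposited MM1.S comparison the log2 fold change of RIPK3 was 0.71, with an adjusted p of 0.0168 in a column named as DESeq2 names it. MLKL, the pore-forming executor, went from 246 and 229.8 to 270.4 and 262 in MM1.S and from 535 and 560.2 to 331 and 379 in H929, a line difference of 0.79 ± 0.16 (adjusted p = 0.00439) that came from a fall in H929. RIPK1 rose in both lines (0.66 and 0.83) with a line difference of -0.17 ± 0.18 (adjusted p = 0.529). CASP8, which holds necroptosis in check, gave -0.33 ± 0.17 (adjusted p = 0.18). ADAR, whose editing removes double-stranded RNA and whose Z-binding domain is shared with ZBP1, had a line difference of 0.53 ± 0.12 (adjusted p = 0.008), and it was not called when the fit held only the 8 libraries compared (adjusted p = 0.0508). With replicate block, 8 of 24 genes of necroptosis and death receptors were called above 0. In the main fit 5 were above 0 and 1 (FAS) below, against 10.4% and 11% of all genes. They included the TRAIL receptors TNFRSF10B (0.96 ± 0.12 (adjusted p = 1.81e-04)) and TNFRSF10A (0.69 ± 0.13 (adjusted p = 0.00207)), both raised in MM1.S and not called in H929, and TNFAIP3 (0.81 ± 0.16 (adjusted p = 0.00294)), the deubiquitinase A20. Necroptosis counts ran from 4 to 8 above 0 and from 0 to 3 below over the 20 alternative fits. Necroptosis genes called numbered 0 below without H929 scramble replicate 2, H929 shRNA1 replicate 2, MM1.S scramble replicate 1 or MM1.S shRNA1 replicate 2.

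Cytosolic ribosomal protein genes had line differences of one sign. Of 58 tested, 58 were called above 0, with values from 0.60 to 2.39 and a median of 1.03. In H929 all 58 fell (median -1.17). In MM1.S 22 fell and 1 rose (median -0.23), and RPS27 was the member that rose. The MM1.S count below 0 was 34 in the fit with replicate block and 8 without MM1.S shRNA1 replicate 1. RPL13A, a large-subunit protein that also serves interferon-gamma-dependent translational silencing, went from 34243 and 30879 to 23924 and 27776 in MM1.S and from 55025 and 52624 to 8659 and 8213 in H929, a line difference of 2.34 ± 0.16 (adjusted p = 3.63e-06). RPL3, at the peptidyl transferase centre, went from 38826 and 38052 to 33639.6 and 34902 in MM1.S and from 46024 and 44725 to 12637 and 12724 in H929, a line difference of 1.67 ± 0.13 (adjusted p = 7.72e-06). RPS20 of the small subunit went from 16889 and 16021 to 9469 and 9734 in MM1.S and from 13856 and 13865 to 2284 and 2686 in H929, a line difference of 1.71 ± 0.13 (adjusted p = 6.38e-06). The arms of these genes did not overlap in H929, where the shRNA1 libraries held the lower values. The lowest line difference of the list was that of RPLP2 (0.60 ± 0.17 (adjusted p = 0.0229)).

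The ribosomal protein genes' share of reads was 6.72 to 6.77% in the H929 scramble libraries and 2.86 to 3.18% in the H929 shRNA1 libraries. In MM1.S it was 4.21 to 4.26% and 3.76 to 3.98%. Most of these genes are short, and 42 of the 58 lay among the 2892 shortest protein-coding genes tested. The other 2850 of these had a median line difference of 0.04, with medians of -0.19 in MM1.S and -0.25 in H929. Ribosome biogenesis factors, which build the subunits, had few calls. Of 41, 2 were called above 0 and 2 below (median -0.07), against 10.4% and 11% of all genes. In the main fit 30 fell in both lines, and with replicate block the counts above and below 0 were 4 and 7. NOB1, an endonuclease of small-subunit maturation, had a line difference of 0.81 ± 0.14 (adjusted p = 0.00182). Ribosome biogenesis counts ran from 1 to 4 above 0 and from 0 to 9 below over the 20 alternative fits. Ribosome biogenesis genes called numbered 1 above without H929 scramble replicate 1, H929 shRNA1 replicate 1 or MM1.S scramble replicate 2, 4 above without MM1.S scramble replicate 1, 0 below without H929 shRNA1 replicate 2, 1 below without H929 scramble replicate 1, H929 scramble replicate 2, MM1.S scramble replicate 1 or MM1.S shRNA1 replicate 2, and 4 below without H929 shRNA1 replicate 1. Reads of ribosomal protein genes can be split with near-identical processed pseudogenes by the counting, which adds uncertainty to single members.

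**Figure D3:**
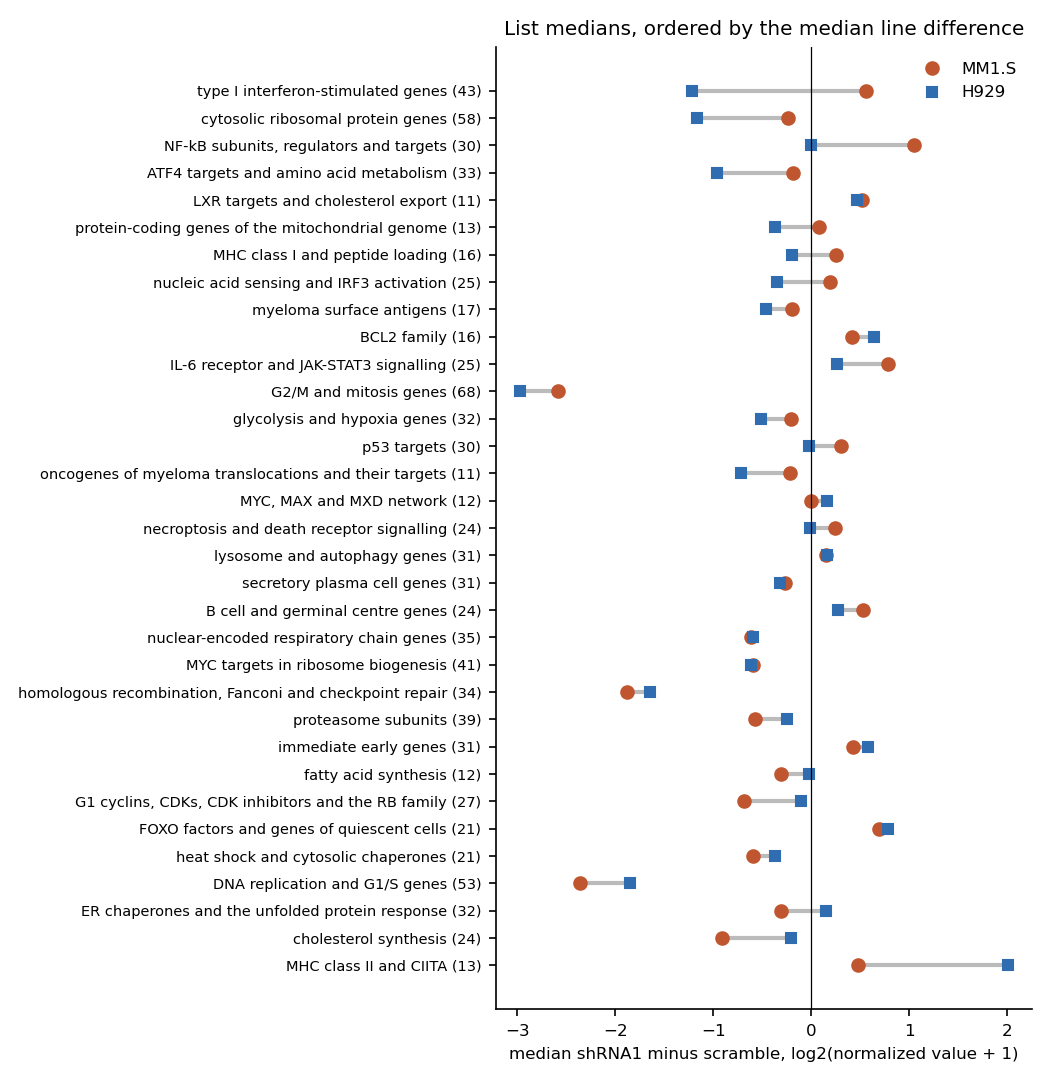
Median shRNA1 effect of each gene list in MM1.S and in H929, in log2(normalized value + 1), ordered by the median line difference. Interferon-stimulated and ribosomal protein genes, with median line differences of 1.75 and 1.03, stand at one end, and MHC class II genes, with -1.48, at the other.

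MHC class II genes, which present exogenous peptides to CD4+ T cells, moved the other way. Of 13 tested, 8 had a line difference called below 0 and 0 above, with a median of -1.48. 11 rose in H929 (median 2.00) and 4 in MM1.S (median 0.47). CIITA, the master activator of these genes, went from 1673 and 2059 to 2123 and 2409.9 in MM1.S and from 97.3 and 64.7 to 473 and 811 in H929, a line difference of -2.66 ± 0.39 (adjusted p = 4.23e-04). HLA-DRA, the alpha chain of HLA-DR, went from 7574 and 7439 to 9087 and 9375 in MM1.S and from 130.4 and 92.7 to 686 and 1181 in H929, a line difference of -2.72 ± 0.31 (adjusted p = 8.43e-05). HLA-DPA1 went from 1902 and 2019.6 to 1658 and 1876 in MM1.S and from 125 and 114 to 389 and 594 in H929, a line difference of -2.15 ± 0.30 (adjusted p = 3.30e-04). In each of the 3 the H929 shRNA1 libraries lay above both controls and the second held more than the first. The members raised in MM1.S were HLA-DMB, HLA-DOA, HLA-DQA1 and HLA-DQB1, and 3 members were called higher in both lines. HLA-DQA1, which rose in both lines, had a line difference of 1.14 ± 0.53 (adjusted p = 0.147), not called. Class II counts ran from 0 to 1 above 0 and from 4 to 9 below over the 20 alternative fits. Class II genes called numbered 1 above without H929 shRNA1 replicate 2 or MM1.S scramble replicate 1, 4 below without H929 shRNA1 replicate 2 or MM1.S shRNA1 replicate 1, and 5 below without H929 scramble replicate 2 or MM1.S scramble replicate 2. Over these groups the summed markers of B cells, which express MHC class II, were 36.1 to 39.0 and 142 to 153 CPM in MM1.S and 15.5 to 18.2 and 24.2 to 27.8 CPM in H929, most of it CR2 in MM1.S, with MS4A1 and PAX5 below 2 CPM throughout. Their part in the result was not tested.

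MHC class I genes, by which every nucleated cell displays its own peptides, had 6 of 16 called above and 1 below (median 0.37). HLA-B went from 12414 and 13069 to 17783 and 18958 in MM1.S and from 14694 and 15778 to 6889.9 and 8396 in H929, a line difference of 1.53 ± 0.15 (adjusted p = 3.01e-05), with a rise in MM1.S and a fall in H929. HLA-F (1.31 ± 0.18 (adjusted p = 3.12e-04)) rose in MM1.S and was not called in H929. The member below 0 was the peptide transporter subunit TAP2 (-0.77 ± 0.14 (adjusted p = 0.00187)). Class I counts ran from 3 to 8 above 0 and from 1 to 2 below over the 20 alternative fits. Class I genes called numbered 3 above without H929 scramble replicate 2 or H929 shRNA1 replicate 1, and 2 below without H929 shRNA1 replicate 1, MM1.S scramble replicate 2 or MM1.S shRNA1 replicate 1. HLA genes are polymorphic and alike in sequence, so the counting can move reads between them.

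Genes of NF-kB signalling were raised more in MM1.S. Of 30, 15 had a line difference called above 0 and 1 below (median 0.70). In MM1.S 19 rose and 1 fell (median 1.04), and in H929 8 rose and 5 fell (median -0.00). REL, a subunit of the factor, went from 52.4 and 71.3 to 335 and 301 in MM1.S and from 555 and 392 to 542 and 514 in H929, a line difference of 2.18 ± 0.27 (adjusted p = 1.34e-04). TRAF1, an adaptor of TNF receptors and a target of the factor, went from 197 and 224 to 993 and 1111 in MM1.S and from 393 and 468 to 459 and 441 in H929, a line difference of 2.25 ± 0.19 (adjusted p = 8.67e-06). The adhesion molecule ICAM1 went from 709 and 935 to 2728 and 2798 in MM1.S and from 3188 and 4049.5 to 2491 and 2273 in H929, a line difference of 2.36 ± 0.19 (adjusted p = 7.92e-06), with a rise in MM1.S and a fall in H929. For REL and TRAF1 the MM1.S arms were far apart and the H929 arms overlapped. The member below 0 was MAP3K14 (-1.30 ± 0.17 (adjusted p = 2.25e-04)), the kinase of the non-canonical branch, which rose in H929. BIRC3, an inhibitor of apoptosis and a target, rose in both lines by 1.96 and 2.10. NF-kB counts ran from 10 to 15 above 0 and from 1 to 2 below over the 20 alternative fits.

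**Figure D4:**
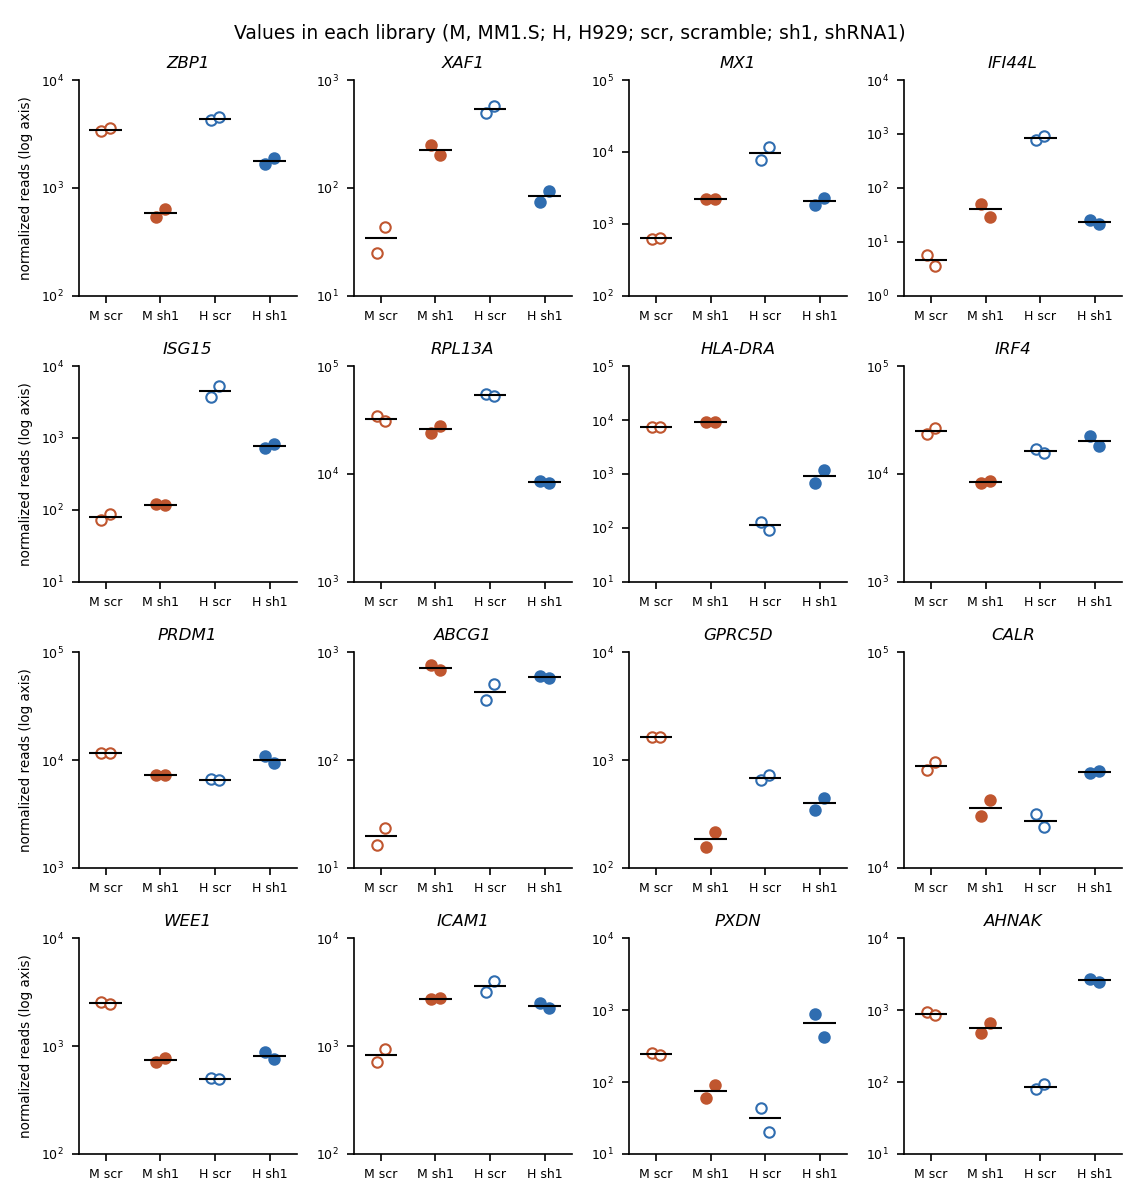
Normalized reads of selected genes in each of the 8 libraries on a log axis, by line and hairpin, each point 1 library. In XAF1 and MX1 the shRNA1 points lie above the scramble points in MM1.S and below them in H929, and in HLA-DRA the gap between arms is wider in H929.

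Sterol synthesis genes lay below 0. Of 24 genes of cholesterol synthesis and uptake, 13 had a line difference called below 0 and 0 above (median -0.83). 19 fell in MM1.S (median -0.91), and 10 fell and 4 rose in H929 (median -0.20). INSIG1, which retains the SREBP activators in the endoplasmic reticulum, went from 4092 and 3529 to 1586 and 1435 in MM1.S and from 797 and 863 to 1012 and 866 in H929, a line difference of -1.51 ± 0.15 (adjusted p = 3.72e-05). It fell in MM1.S, where the arms did not overlap, and was not called in H929.

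The cholesterol exporters lay above 0. ABCG1 went from 16.2 and 23.2 to 763 and 679 in MM1.S and from 359 and 503 to 598 and 574 in H929, a line difference of 4.68 ± 0.28 (adjusted p = 1.25e-06), and ABCA1 went from 55.2 and 38.3 to 1219 and 877 in MM1.S and from 514 and 572 to 1702 and 1708 in H929, a line difference of 2.81 ± 0.32 (adjusted p = 7.62e-05). Both rose in MM1.S, with arms far apart, and ABCA1 rose in H929 too (1.65), while ABCG1 was not called there (adjusted p = 0.0811). In the authors' deposited H929 comparison the log2 fold change of ABCG1 was 0.44, with an adjusted p of 0.0392 in a column named as DESeq2 names it. The other genes of the LXR list, 11 in all, added only SREBF1 (-1.01 ± 0.29 (adjusted p = 0.0247)) and SCD (-0.92 ± 0.16 (adjusted p = 0.00168)) below 0, SCD being the desaturase of fatty acid synthesis. SREBF1 rose in both lines and SCD fell in both. Of 12 fatty acid synthesis genes, 4 were called below 0 and 0 above, among them SCD and the desaturase FADS1 (-1.57 ± 0.24 (adjusted p = 6.73e-04)). LXR counts ran from 2 to 3 above 0 and from 1 to 3 below over the 20 alternative fits. LXR genes called numbered 1 below without H929 scramble replicate 1, H929 shRNA1 replicate 1, MM1.S scramble replicate 2 or MM1.S shRNA1 replicate 1. Fatty acid counts ran from 0 to 1 above 0 and from 2 to 6 below over the 20 alternative fits. Fatty acid genes called numbered 1 above without H929 scramble replicate 1, and 2 below without H929 scramble replicate 1 or H929 shRNA1 replicate 1.

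Endoplasmic reticulum folding and unfolded protein response genes leaned below 0. Of 32, 15 were called below and 2 above, with a median of -0.41. In MM1.S 18 fell and 2 rose, and in H929 10 fell and 13 rose. CALR, the lectin chaperone calreticulin, went from 28511 and 30920.2 to 17479.8 and 20557 in MM1.S and from 17699 and 15431 to 27508 and 28084 in H929, a line difference of -1.40 ± 0.16 (adjusted p = 7.15e-05). SEL1L, the scaffold of the degradation ligase HRD1, went from 12365 and 13198 to 10507 and 10004 in MM1.S and from 12211 and 12974 to 19278 and 22236 in H929, a line difference of -1.04 ± 0.13 (adjusted p = 1.98e-04). Both fell in MM1.S and rose in H929. ERO1B, an oxidase that drives disulfide formation, was the exception with from 178 and 159 to 1628 and 1233 in MM1.S and from 207 and 189 to 379.5 and 456 in H929 and a line difference of 2.00 ± 0.29 (adjusted p = 4.30e-04), and P4HB, a disulfide isomerase, was the other (0.79 ± 0.19 (adjusted p = 0.0113)). XBP1, the factor activated in this response, fell in both lines with a line difference of -0.18 ± 0.13 (adjusted p = 0.379). Folding counts ran from 1 to 4 above 0 and from 10 to 19 below over the 20 alternative fits. Folding genes called numbered 1 above without H929 shRNA1 replicate 1.

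The endoplasmic reticulum stress element, CCAAT and CCACG separated by any 9 bases on either strand, lay in 0.0806% of all promoters. It lay in 0.137% of the promoters of tested genes, in 0.145% of those called above 0 and in 0.311% of those called below 0. Within this list, 6 of 28 matched promoters held it. These were 5 of the 14 called below 0 (HSPA5, HSP90B1, CALR, CANX and CRELD2), 1 of the 2 called above 0 (ERO1B) and 0 of the 12 not called. The stretches of CALR, HSPA5 and ERO1B, with the element in capitals, are shown because they come from genes on both sides of 0.
CALR: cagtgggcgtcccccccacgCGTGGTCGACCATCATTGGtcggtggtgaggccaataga
HSPA5: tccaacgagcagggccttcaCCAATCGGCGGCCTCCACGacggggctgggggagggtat
ERO1B: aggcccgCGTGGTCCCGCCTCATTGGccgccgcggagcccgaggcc
They lie at chr19:12938364-12938422 on the plus strand, chr9:125241371-125241429 on the minus strand and chr1:236282163-236282208 on the minus strand in GRCh38.p14. HSPA5, the chaperone BiP, had a line difference of -0.49 ± 0.13 (adjusted p = 0.0143).

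Targets of ATF4, the factor of the amino acid response, had 13 of 33 line differences called above 0 and 1 below (median 0.69). 20 fell and 3 rose in H929 (median -0.96), while in MM1.S 6 fell and 5 rose (median -0.19). The MM1.S scramble libraries differed from each other in this list: all 33 members were higher in replicate 2, 16 of them at least 2-fold, with a median ratio of 1.94. Without scramble replicate 2 the counts were 26 above and 1 below (median 1.21), and without scramble replicate 1 they were 11 above and 4 below (median 0.15). Without H929 shRNA1 replicate 1, 8 were called above, and without MM1.S shRNA1 replicate 1, 2 were called below. ATF5, a paralogue and target, went from 439 and 621 to 894 and 985 in MM1.S and from 8755 and 10124 to 4168 and 5613 in H929, a line difference of 1.81 ± 0.22 (adjusted p = 1.48e-04), and GARS, the glycyl-tRNA synthetase, went from 3405 and 6026 to 3327 and 3229.9 in MM1.S and from 6173 and 5158 to 1476 and 1813 in H929, a line difference of 1.32 ± 0.28 (adjusted p = 0.00496). SLC7A11, the cystine transporter, went from 284 and 965 to 1493 and 1117 in MM1.S and from 166 and 195 to 45.5 and 102 in H929, a line difference of 2.69 ± 0.63 (adjusted p = 0.00889). ATF3, a stress-induced factor, was the member below 0, from 621 and 1204 to 871 and 821 in MM1.S and from 334 and 311 to 869 and 1186 in H929 (-1.68 ± 0.33 (adjusted p = 0.00296)).

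Proliferation genes fell in both lines, and their line differences had both signs. Of 53 DNA replication and G1/S genes, all fell in MM1.S (median -2.36) and 50 fell in H929 (median -1.85), with 20 line differences called below 0 and 5 above. Of 68 G2/M genes, all fell in MM1.S (median -2.58) and 67 in H929 (median -2.97), with 16 above and 13 below. The median line differences were -0.39 and 0.21. Over all genes, 10.4% were called above 0 and 11% below. Replication counts ran from 1 to 8 above 0 and from 16 to 24 below over the 20 alternative fits. Replication genes called numbered 1 above without H929 scramble replicate 1 or MM1.S shRNA1 replicate 2, 2 above without H929 shRNA1 replicate 1, MM1.S scramble replicate 1 or MM1.S scramble replicate 2, and 3 above without H929 scramble replicate 2. G2/M counts ran from 7 to 24 above 0 and from 8 to 18 below over the 20 alternative fits. G2/M genes called numbered 7 above without H929 scramble replicate 2, 9 above without MM1.S scramble replicate 2 or MM1.S shRNA1 replicate 2, 10 above without H929 shRNA1 replicate 1, and 8 below without MM1.S scramble replicate 1.

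CCNE1, cyclin E1, which drives entry into S phase, went from 940.0 and 964 to 244 and 256 in MM1.S and from 387 and 386 to 414 and 364 in H929, a line difference of -1.93 ± 0.18 (adjusted p = 2.11e-05), with overlapping arms in H929. E2F8, a repressor of the E2F family, went from 1311 and 1194 to 132 and 164 in MM1.S and from 128 and 110.1 to 75.2 and 65.4 in H929, a line difference of -2.32 ± 0.25 (adjusted p = 6.07e-05). RBL1 (-1.45 ± 0.20 (adjusted p = 2.72e-04)) and LIN54 (-1.31 ± 0.17 (adjusted p = 1.64e-04)), parts of the DREAM repressor complex, fell in MM1.S and were not called in H929. In the list of G1 cyclins, CDKs and RB proteins, 9 of 27 were called below 0 and 0 above. G1 cyclin and RB counts ran from 0 to 3 above 0 and from 8 to 14 below over the 20 alternative fits. G1 cyclin and RB genes called numbered 1 above without H929 shRNA1 replicate 2 or MM1.S scramble replicate 2, and 3 above without MM1.S shRNA1 replicate 1. TYMS, thymidylate synthase, fell in both lines and further in MM1.S (-1.29 ± 0.15 (adjusted p = 8.48e-05)). Against these, RRM2, the regulated subunit of ribonucleotide reductase, fell further in H929, from 19116 and 16520.2 to 1413 and 1867 in MM1.S and from 2116 and 1750.0 to 48.0 and 72.7 in H929, a line difference of 1.55 ± 0.26 (adjusted p = 0.0012).

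In mitosis, CENPF, a kinetochore protein, fell further in MM1.S, from 11555 and 9245 to 1793 and 1748 in MM1.S and from 698 and 723 to 371 and 366 in H929, a line difference of -1.60 ± 0.16 (adjusted p = 4.04e-05). SPC25, of the NDC80 kinetochore complex, fell further in H929, from 58.4 and 61.8 to 0.83 and 1.84 normalized reads. Its line difference of 1.87 ± 0.33 (adjusted p = 0.00165) lost the call with a pseudocount of 5 (adjusted p = 0.145). MKI67, the proliferation antigen Ki-67, had a line difference of 0.86 ± 0.24 (adjusted p = 0.0215), which lost the call in 5 of 20 alternative fits. WEE1, the kinase that restrains CDK1, went from 2572 and 2459.7 to 708 and 775 in MM1.S and from 501 and 495 to 874 and 759 in H929, a line difference of -2.47 ± 0.15 (adjusted p = 1.25e-06). It fell in MM1.S and rose in H929. Among 34 homologous recombination and checkpoint genes, 7 were called below 0 and 4 above, against 11% and 10.4% of all genes. The fit with replicate block gave 12 below and 7 above. BARD1, the partner of BRCA1, had -1.33 ± 0.20 (adjusted p = 6.18e-04) and POLQ, the polymerase of microhomology end joining, 1.70 ± 0.31 (adjusted p = 0.00185). Recombination counts ran from 2 to 8 above 0 and from 3 to 13 below over the 20 alternative fits. Recombination genes called numbered 2 above without H929 scramble replicate 1, H929 shRNA1 replicate 1 or MM1.S scramble replicate 2, 3 below without MM1.S scramble replicate 1, and 4 below without H929 scramble replicate 2.

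Plasma cell genes had line differences of both signs. Of 31 plasma cell genes, 9 were called above 0 and 7 below, with a median of 0.03. IRF4, on which myeloma cells depend, went from 23583 and 26877 to 8164 and 8563 in MM1.S and from 17109 and 15719 to 22362 and 18232 in H929, a line difference of -1.89 ± 0.16 (adjusted p = 8.67e-06). PRDM1, which encodes the plasma cell repressor BLIMP1, went from 11729 and 11549 to 7194 and 7203 in MM1.S and from 6597 and 6591 to 10906 and 9284 in H929, a line difference of -1.30 ± 0.14 (adjusted p = 4.26e-05). Both fell in MM1.S and rose in H929, and no arm overlapped. The coactivator POU2AF1 rose in H929 and was not called in MM1.S (-1.11 ± 0.16 (adjusted p = 3.65e-04)). MYC, a target of IRF4 in myeloma, went from 14183 and 16544 to 14012 and 16844 in MM1.S and from 11118 and 9247 to 6772 and 5583 in H929, a line difference of 0.73 ± 0.21 (adjusted p = 0.0249) that came from H929. It lost the call in 6 of 20 alternative fits.

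Several surface antigens used to recognise myeloma cells differed. GPRC5D, an orphan receptor and antibody target, went from 1649 and 1621 to 157 and 216 in MM1.S and from 648 and 727 to 345 and 447 in H929, a line difference of -2.34 ± 0.23 (adjusted p = 3.24e-05), with a fall in both lines. TNFRSF17, which encodes BCMA, also fell in both (-0.52 ± 0.14 (adjusted p = 0.0161)). CD48, a ligand of the SLAM family, went from 4386 and 3785 to 3072 and 2811 in MM1.S and from 4884 and 4465 to 814 and 974 in H929, a line difference of 1.92 ± 0.15 (adjusted p = 7.75e-06), and SLAMF7 fell in both and further in H929 (1.28 ± 0.18 (adjusted p = 3.51e-04)). CD38 rose in MM1.S, from 2287 and 1625 to 7905 and 6389 in MM1.S and from 4229.9 and 5011 to 5244 and 6059.8 in H929, a line difference of 1.59 ± 0.23 (adjusted p = 3.97e-04). ITGA4, an integrin of homing to bone marrow, fell in MM1.S and rose in H929 (-1.13 ± 0.14 (adjusted p = 1.17e-04)). Of 17 antigens, 6 were called above 0 and 5 below.

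The oncogenes and targets of the lines' translocations gave 3 of 11 above 0 and 2 below. WHSC1, the histone methyltransferase activated in H929, fell in MM1.S, from 8557 and 8707 to 3012 and 3402 in MM1.S and from 17348 and 17934 to 18473 and 17549 in H929, a line difference of -1.46 ± 0.13 (adjusted p = 1.22e-05). Its H929 arms overlapped. ITGB7 and CCR1, targets of MAF, had line differences of 1.38 ± 0.25 (adjusted p = 0.00175) and 2.44 ± 0.26 (adjusted p = 5.86e-05). ITGB7 rose in MM1.S and fell in H929, and CCR1 fell in H929 with no call in MM1.S. Among 24 B cell and germinal centre genes, 4 were above and 6 below 0, among them the chemokine receptor CXCR4, from 2211 and 2070.4 to 3003 and 2979.8 in MM1.S and from 37.9 and 28.0 to 165 and 138 in H929, a line difference of -1.70 ± 0.21 (adjusted p = 1.62e-04), with a rise in both lines. Over all genes, 10.4% were called above 0 and 11% below in the main fit. B cell counts ran from 2 to 4 above 0 and from 5 to 7 below over the 20 alternative fits. B cell genes called numbered 2 above without H929 scramble replicate 2, MM1.S scramble replicate 1 or MM1.S shRNA1 replicate 2.

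The BCL2 family, which sets the threshold for mitochondrial apoptosis, had 6 of 16 called above 0 and 4 below. BMF, a BH3-only activator of death, rose in both lines, from 2525 and 2802 to 12620.2 and 12389 in MM1.S and from 3353 and 3728 to 7402 and 6878 in H929, a line difference of 1.22 ± 0.13 (adjusted p = 4.80e-05). HRK, of the same class, did so too (1.45 ± 0.29 (adjusted p = 0.00334)). PMAIP1, known as NOXA, went from 177 and 306 to 234 and 161 in MM1.S and from 37.9 and 52.2 to 128 and 143 in H929, a line difference of -1.84 ± 0.37 (adjusted p = 0.00361), with a rise in H929 and overlapping arms in MM1.S. BCL2L11, which encodes BIM, rose in both and further in H929 (-0.84 ± 0.19 (adjusted p = 0.00653)). BCL2 family counts ran from 2 to 8 above 0 and from 2 to 5 below over the 20 alternative fits. BCL2 family genes called numbered 2 above without H929 scramble replicate 2, 3 above without H929 shRNA1 replicate 1 or H929 shRNA1 replicate 2, and 2 below without H929 scramble replicate 2. Of 30 p53 targets, 9 were above and 3 below, against 10.4% and 11% of all genes. CDKN1A, the CDK inhibitor p21, rose in MM1.S and fell in H929, from 2601 and 3536 to 3969.9 and 4769 in MM1.S and from 15162 and 15619.5 to 10795 and 12564 in H929, a line difference of 0.92 ± 0.20 (adjusted p = 0.00593). RRM2B and PLK3 rose in MM1.S and were not called in H929 (0.95 and 1.01). The p53 counts ran from 6 to 11 above 0 and from 1 to 4 below over the 20 alternative fits. The p53 genes called numbered 1 below without H929 scramble replicate 2, H929 shRNA1 replicate 2 or MM1.S shRNA1 replicate 2.

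Among genes of quiescence, 5 of 21 were above and 7 below 0. PDCD4, a translational repressor, rose in MM1.S and fell in H929, from 2851 and 2722 to 6961 and 5639 in MM1.S and from 1767 and 2352 to 957 and 973 in H929, a line difference of 2.25 ± 0.19 (adjusted p = 8.43e-06). SESN3, a sestrin that inhibits mTORC1, rose in H929 with no call in MM1.S (-1.71 ± 0.24 (adjusted p = 3.05e-04)). Among 25 genes of IL-6 and JAK-STAT signalling, 4 were above and 2 below 0, against 10.4% and 11% of all genes. The counts with replicate block were 9 and 5. PTPN6, the phosphatase SHP-1, had 2.13 ± 0.24 (adjusted p = 6.83e-05) and CISH, a feedback inhibitor, 1.86 ± 0.38 (adjusted p = 0.00398). Quiescence counts ran from 4 to 5 above 0 and from 6 to 11 below over the 20 alternative fits. JAK-STAT counts ran from 3 to 9 above 0 and from 1 to 6 below over the 20 alternative fits. JAK-STAT genes called numbered 1 below without H929 scramble replicate 2 or H929 shRNA1 replicate 1, and 4 below without H929 shRNA1 replicate 2.

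Of 13 protein genes of the mitochondrial genome, 4 were above 0 and 0 below (median 0.39), against 10.4% and 11% of all genes, and 8 were above with replicate block. Mitochondrial genome counts ran from 1 to 10 above 0 and at 0 below over the 20 alternative fits. Mitochondrial genome genes called numbered 1 above without H929 scramble replicate 1 or H929 shRNA1 replicate 2, and 2 above without MM1.S scramble replicate 2 or MM1.S shRNA1 replicate 2. MT-CO1, a subunit of cytochrome oxidase, led with 0.91 ± 0.19 (adjusted p = 0.00465) from a fall in H929. Mitochondrial genes took 9.87 to 10.2% of reads in MM1.S scramble and 11.6 to 11.7% in MM1.S shRNA1, and 6.63 to 7.22% and 5.98 to 6.34% in H929. The nuclear oxidative phosphorylation genes gave 5 above and 2 below of 35, against the same 10.4% and 11% of all genes. With replicate block they gave 11 and 5. Oxidative phosphorylation counts ran from 0 to 11 above 0 and from 1 to 8 below over the 20 alternative fits. Oxidative phosphorylation genes called numbered 0 above without MM1.S scramble replicate 2 or MM1.S shRNA1 replicate 1, 1 above without H929 scramble replicate 2 or H929 shRNA1 replicate 1, 2 above without H929 scramble replicate 1 or H929 shRNA1 replicate 2, 8 above without MM1.S scramble replicate 1, 1 below without H929 scramble replicate 2, and 4 below without H929 shRNA1 replicate 2. In glycolysis, LDHA, lactate dehydrogenase A (-1.19 ± 0.26 (adjusted p = 0.00538)), and PDK1, which shuts the pyruvate dehydrogenase complex (-1.62 ± 0.18 (adjusted p = 7.87e-05)), lay below 0, and SLC16A3, a lactate exporter, above (1.65 ± 0.36 (adjusted p = 0.00609)), among 5 below and 4 above of 32. These counts too stand beside 11% below and 10.4% above of all genes. Glycolysis counts ran from 2 to 8 above 0 and from 3 to 7 below over the 20 alternative fits. Glycolysis genes called numbered 2 above without H929 scramble replicate 2, 7 above without H929 scramble replicate 1, and 3 below without H929 scramble replicate 1, H929 shRNA1 replicate 1, H929 shRNA1 replicate 2, MM1.S scramble replicate 1, MM1.S scramble replicate 2 or MM1.S shRNA1 replicate 1.

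None of 39 proteasome genes was called above 0 and 7 were below, or 14 with replicate block, with PSMD2 of the regulatory particle (-1.02 ± 0.16 (adjusted p = 6.51e-04)) and PSMA2 of the core (-1.14 ± 0.24 (adjusted p = 0.00434)) in the lead. Proteasome counts ran at 0 above 0 and from 4 to 15 below over the 20 alternative fits. Proteasome genes called numbered 4 below without H929 scramble replicate 2. Heat shock genes gave 4 below and 1 above of 21, and 7 below with replicate block. The co-chaperone DNAJB1 had -1.10 ± 0.23 (adjusted p = 0.00471) and the factor HSF1 1.07 ± 0.25 (adjusted p = 0.00931). Heat shock counts ran at 1 above 0 and from 1 to 8 below over the 20 alternative fits. Heat shock genes called numbered 1 below without H929 scramble replicate 2, 2 below without H929 shRNA1 replicate 1, MM1.S scramble replicate 1, MM1.S shRNA1 replicate 1 or MM1.S shRNA1 replicate 2, and 7 below without H929 shRNA1 replicate 2 or MM1.S scramble replicate 2. Of 31 lysosome and autophagy genes, 7 were above and 3 below, with the protease CTSL at 1.31 and the galactosidase GLA at -1.52. Lysosome counts ran from 4 to 9 above 0 and from 3 to 5 below over the 20 alternative fits. Lysosome genes called numbered 4 above without MM1.S scramble replicate 1. Immediate early genes gave 3 above and 6 below of 31, and the MYC network 3 above and 3 below of 12. Over all genes the shares were 10.4% above and 11% below. Immediate early counts ran from 2 to 4 above 0 and from 5 to 11 below over the 20 alternative fits. MYC network counts ran from 0 to 3 above 0 and from 1 to 4 below over the 20 alternative fits. MYC network genes called numbered 0 above without H929 shRNA1 replicate 2, 1 above without H929 scramble replicate 1, H929 scramble replicate 2, MM1.S scramble replicate 1 or MM1.S shRNA1 replicate 2, and 1 below without H929 scramble replicate 1, H929 shRNA1 replicate 1, MM1.S scramble replicate 2 or MM1.S shRNA1 replicate 1.

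**Figure D5:**
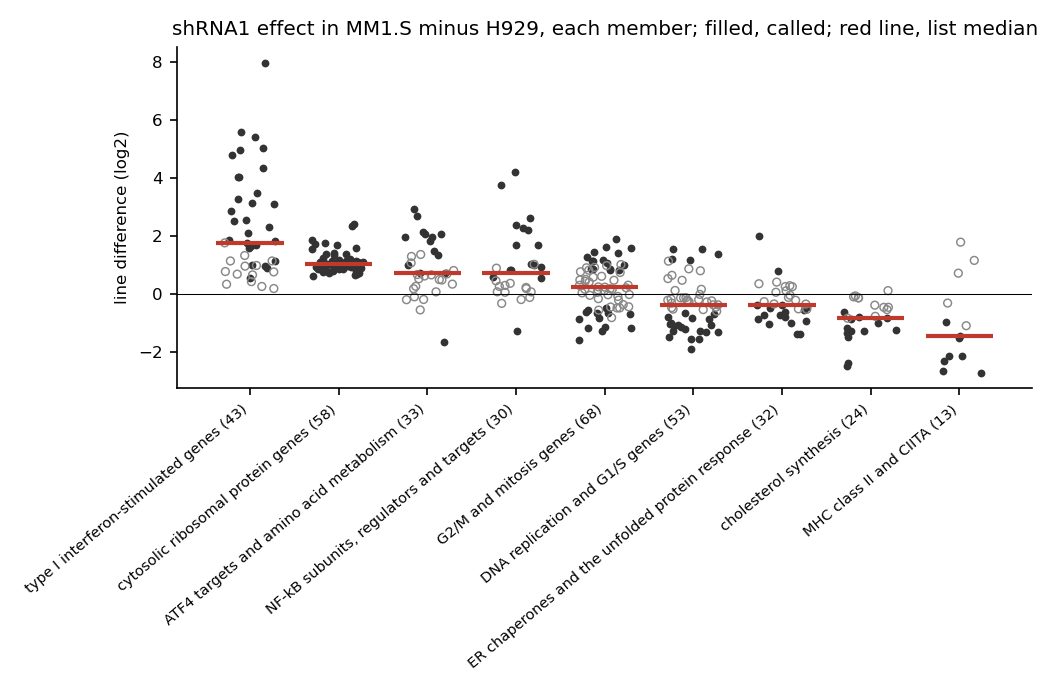
Line difference of each member of selected lists in log2(normalized value + 1), each point 1 gene, filled where called. All 58 ribosomal protein points lie between 0.60 and 2.39, whereas the G2/M points spread on both sides of 0.

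Beyond these lists, the largest line differences among genes with at least 5 CPM in both lines were spread over functions. After XAF1, MX2 and ABCG1, the highest was SLC2A5, the fructose transporter GLUT5, which went from 124 and 159 to 692 and 891 in MM1.S and from 30142 and 40770.3 to 7872 and 14053 in H929, a line difference of 4.21 ± 0.32 (adjusted p = 6.13e-06). CSF1, the macrophage growth factor, fell in H929, from 127 and 192 to 188 and 241 in MM1.S and from 5113 and 4409.7 to 635 and 815 in H929 (3.17 ± 0.26 (adjusted p = 9.16e-06)). ITGAL, the alpha chain of the integrin LFA-1 that binds ICAM1, rose in MM1.S and fell in H929, from 5572 and 5968 to 11183 and 12637 in MM1.S and from 12686 and 16602 to 2489 and 4138 in H929 (3.22 ± 0.26 (adjusted p = 8.43e-06)). ASB2, a substrate receptor of a ubiquitin ligase (3.46), and GALNT18, a glycosyltransferase (3.15), behaved like ITGAL.

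At the other end, PXDN, a peroxidase that crosslinks collagen IV, went from 253 and 241 to 60.4 and 91.9 in MM1.S and from 43.8 and 20.3 to 892 and 419.8 in H929, a line difference of -6.03 ± 0.55 (adjusted p = 1.74e-05). It fell in MM1.S and rose in H929, and the arms did not overlap in either line. AHNAK, a giant scaffold protein, went from 934 and 854 to 479 and 668 in MM1.S and from 79.8 and 92.7 to 2752 and 2495 in H929 (-5.57 ± 0.27 (adjusted p = 3.61e-07)). The caveolae genes CAV1 and CAV2 are neighbours on chromosome 7. CAV1 went from 3400.1 and 2620.0 to 1251 and 1142 in MM1.S and from 148 and 161 to 442 and 522 in H929 (-2.95 ± 0.28 (adjusted p = 2.50e-05)), and CAV2 went from 1349.5 and 1077 to 609.7 and 623 in MM1.S and from 13.6 and 12.6 to 275 and 282 in H929 (-5.28 ± 0.88 (adjusted p = 0.00111)), with an MM1.S effect that was not called (adjusted p = 0.243). The MM1.S arms of CAV2 did not overlap, as for 63.8% of all genes. In the authors' deposited MM1.S comparison its log2 fold change was -0.96, with an adjusted p of 1.07e-10 in a column named as DESeq2 names it. HES6, a bHLH factor, fell in MM1.S and rose in H929, from 3406 and 3841 to 266 and 434 in MM1.S and from 170.3 and 204 to 356 and 284 in H929 (-4.18 ± 0.33 (adjusted p = 7.72e-06)). ST8SIA2, a polysialyltransferase (-3.78), PRKAR2B, a regulatory subunit of protein kinase A (-3.16), MARCKSL1, an actin-binding MARCKS relative (-3.09), TMEM178B (-4.08) and the non-coding genes LINC00861 (-4.06) and H1FX-AS1 (-3.26) completed the 10 lowest, to which CAV1 does not belong. Strand use in the counting is not stated, so reads of antisense genes such as H1FX-AS1 and of their partners cannot be told apart.

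Genes expressed in 1 line only are given by their levels, without a fold where a line lies near 0. MMP9, a gelatinase, went from 11.4 and 8.02 to 489 and 575 normalized reads in MM1.S with shRNA1 and from 5.84 and 6.76 to 4.13 and 1.84 in H929. It was thus raised in MM1.S by 5.65 (adjusted p = 4.10e-07) and low in all H929 libraries. KIF1A, a neuronal kinesin, went from 21.4 and 13.5 to 547 and 295 in H929 and held at most 1.78 in MM1.S, and IGF2, a growth factor, went from 0.97 and 1.93 to 129 and 177 in H929 and was 0 in all 4 MM1.S libraries. KIAA1644 went from 0 and 0.97 to 313 and 296 in H929 and was near 0 in MM1.S. MB, which encodes myoglobin, went from 242 and 499 to 9.09 and 5.52 in H929, and IGHE, the constant region of IgE, from 3509.8 and 5624 to 425 and 704. The line difference of IGF2 and KIAA1644 was not called by edgeR, and that of MB by neither edgeR nor DESeq2. In all, 154 called genes reached 5 CPM in 1 line and stayed below 1 CPM in each library of the other, 39 in MM1.S and 115 in H929.

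The responses also shared a core. Of 9819 genes with at least 5 CPM in both lines, 2481 were called the same way in both with a 95% interval of the line difference inside 1 log2 unit on each side of 0, and 864 of these were higher and 1617 lower with shRNA1. PIK3IP1, an inhibitor of PI3-kinase, went from 861 and 836 to 6118 and 5609.6 in MM1.S and from 779 and 975 to 6732 and 5741 in H929, a line difference of -0.05 (95% interval -0.41 to 0.32). CDC20, the activator of the anaphase-promoting complex, went from 2914 and 2812 to 163 and 273 in MM1.S and from 489 and 588 to 31.4 and 35.0 in H929, a line difference of 0.22 (95% interval -0.39 to 0.83). CCNB1, cyclin B1, gave -0.18 (95% interval -0.58 to 0.23). Further examples were KIAA2022, ARHGEF40, ZNF532 and PCDH1 among the raised genes and KIF20A, CDCA2 and CDCA8 among the lowered ones. Such intervals bound the difference and do not show that it is 0.

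The same line difference was taken for hairpin 2 (shRNA2), with its own H929 scramble pair and the same MM1.S scramble pair as for shRNA1. Because that pair is shared, the values are set side by side and no overlap is given. For shRNA2, 885 genes (4.34%) lay above 0 and 1102 (5.41%) below, 1987 (9.75%) in all, against 4366 for shRNA1. The difference between the hairpins' line differences, in which the shared scramble cancels, was called above 0 for 1338 genes (6.57%) and below 0 for 1241 (6.09%), 2579 (12.7%) in all, and for 2175 and 2400 with replicate block in MM1.S. Of the genes called for shRNA1, 851 of 2118 above and 812 of 2248 below 0 were also called in that test with the same sign. ZBP1 itself had line differences of -1.25 with shRNA1 and -1.48 with shRNA2, which did not pass the test of their difference (adjusted p = 0.52).

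By list, the ribosomal protein and G2/M genes had the most members called in the test of the hairpin difference. Other lists, not all given here, had such members too, against 6.57% above and 6.09% below 0 of all genes. Above and below 0 were 3 and 9 of 32 folding genes, and 7 and 2 of 17 surface antigens. Plasma cell genes gave 8 and 3 of 31, and G1 cyclin and RB genes 1 and 7 of 27. NF-kB genes gave 7 and 1 of 30, and ATF4 targets 0 and 6 of 33. The ATF4 targets had median line differences of 0.69 with shRNA1 and 1.20 with shRNA2, with 13 and 17 called above 0. Both rest on the shared MM1.S scramble pair, whose libraries differed in this list. Of the 15 folding genes called below 0 with shRNA1, 9 were also below 0 in that test. For the ribosomal protein genes the median line difference was 1.03 with shRNA1 and 0.23 with shRNA2, 58 and 5 members were called above 0, and 44 were called above 0 in the test of the difference. For the G2/M genes the medians were 0.21 and -0.85. Of these 68 genes, 28 were called below 0 with shRNA2, and 34 were above and 3 below 0 in the test of the difference. Interferon-stimulated genes had medians of 1.75 and 0.88, with 29 and 20 called above 0 and 14 passing the test of the difference. IFI44L (7.97 and 2.33), MX2 (4.80 and 1.15) and IFI6 (4.03 and 0.73) passed it with the higher value for shRNA1. MHC class II genes had medians of -1.48 and -1.74, with 8 and 10 called below 0. In the test of the difference 2 of 13 were above and 0 below 0, and HLA-DRA (-2.72 and -2.05) did not pass (adjusted p = 0.282). IRF4 (-1.89 and -0.37) and WEE1 (-2.47 and -0.29) passed with the lower value for shRNA1. PMAIP1 had opposite signs, -1.84 and 1.70, and SLC2A5 had 4.21 and -0.23. ABCA1 (2.81 and 2.43), GPRC5D (-2.34 and -2.26) and WHSC1 (-1.46 and -1.55) did not pass.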

How the data were processed

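Poly(A) RNA was sequenced from MM1.S and H929 cells carrying a scramble or ZBP1 hairpin. For MM1.S the authors deposited whole-number counts per gene, and for H929 counts divided by size factors, a normalized signal; per the submitters' processing notes reads were aligned with STAR 2.5.3a to GRCh38 and handled with DESeq2 1.24.0, while the counting tool and annotation are not given in the sources used here. The authors' deposited log2 fold changes were copied for the named genes and are printed for ZBP1, RIPK3, ABCG1, CAV2 and SLC7A11 only. Their deposited adjusted p-values, in columns with the names DESeq2 gives per the file headers, are printed for RIPK3, ABCG1, CAV2 and SLC7A11 only. These and the deposited mean signal were not otherwise used. Of the H929 values, 100% were whole multiples of 1 read within 0.01, so reads were recovered. The 2 tables were joined by gene identifier (58069 rows, 18 repeated identifiers dropped) and hold separately normalized values. The second hairpin is numbered differently in the column names, and 1 H929 scramble column lacks its replicate mark; these were matched to the titles by exclusion.

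MM1.S counts were divided by median-of-ratios size factors. Genes with a normalized value of at least 10 in at least 2 of the 14 libraries were kept (20370). limma 3.58.1 with an intensity trend was fitted in R 4.3.3 to log2(value + 1) over 7 groups of 2 libraries, which leaves 7 residual degrees of freedom, and contrasts were called at an adjusted p under 0.05. The fit was also run on simulated counts that held no replicate pairing, and the outcome is not given here. Alternatives were edgeR 4.0.16 and DESeq2 1.42.0 on reads, TMM scaling, pseudocounts of 0.5 and 5, other filters, fewer libraries and a replicate block. In MM1.S, same-numbered libraries deviated together from their group means (correlations 0.53, 0.43 and 0.59 over 11429 genes), which was taken as pairing from the data, since the labels do not say what a number marks; in H929 they did not (-0.16 to 0.19). Depth was 15926867 to 28419331 reads per library compared; single low genes have wide counting error.

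The 33 gene lists and the genes compared were chosen with earlier results of these data known. Genes named are those central to ZBP1 signalling, the 10 highest and 10 lowest line differences at 5 CPM or more in both lines, 5 each way of those called in opposite directions, 4 each way of line-restricted genes, up to 3 called genes per list by adjusted p, and 5 each way of genes alike in both lines. A few genes that this rule names are not reported here. Other genes named were chosen after their values were seen. Of the 144 named, 91 overlap another gene in GENCODE 29.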

Additional observations from a re-analysis of the deposited data

Results flagged for a closer look

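The results listed here had shRNA1 effects called in opposite directions in the 2 lines, with the difference itself tested by the limma contrast. They number 268 genes that rose in MM1.S and fell in H929 and 250 genes that fell in MM1.S and rose in H929. In the first direction, XAF1, a partner of the caspase inhibitor XIAP, had a line difference of 5.40 ± 0.41 (adjusted p = 6.13e-06), MX2 one of 4.80 ± 0.40 (adjusted p = 9.37e-06), MX1 one of 4.01 ± 0.26 (adjusted p = 2.01e-06), the fructose transporter gene SLC2A5 one of 4.21 ± 0.32 (adjusted p = 6.13e-06) and the cystine transporter gene SLC7A11 one of 2.69 ± 0.63 (adjusted p = 0.00889). In the second direction, the peroxidase gene PXDN had -6.03 ± 0.55 (adjusted p = 1.74e-05), the kinase subunit gene PRKAR2B -3.16 ± 0.32 (adjusted p = 3.54e-05), CAV1 -2.95 ± 0.28 (adjusted p = 2.50e-05) and MCUB, a regulator of mitochondrial calcium uptake, -2.61 ± 0.28 (adjusted p = 4.80e-05). SLC7A11 rests on MM1.S scramble libraries that differed from each other, with 284 and 965 normalized reads. In the authors' deposited MM1.S comparison its log2 fold change was 0.66, with an adjusted p of 0.344 in a column named as DESeq2 names it. Its rise in MM1.S was thus not called there.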

How the results depend on the processing

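The counts of genes with a line difference stayed within 1.5 times the values of the report in every alternative run except edgeR on reads with replicate block within each line, an alternative chosen after seeing the data, which called 3473 genes below 0; the cause was not tested. In no setting was a called gene called in the opposite direction. With the replicate block in MM1.S only, 3069 genes lay above and 3333 below 0, and no named gene changed its call. For the difference between the hairpins' line differences, the block gave 2175 above and 2400 below in MM1.S only, 2169 and 2399 within each line, and 2392 and 1930 with edgeR; without a filter on low values, 814 lay below 0. Leaving out 1 library at a time gave 1450 to 2248 line differences above 0 and 1606 to 2242 below, and for the hairpin difference 862 to 1508 above and 781 to 1457 below, with 862 and 797 without replicate 2 of the H929 scramble for shRNA1 and 781 without H929 shRNA1 replicate 1. Of 128 named genes with a called line difference, 111 kept the call in all 20 alternatives and 17 lost it in at least 1. IGF2, KIAA1644 and MB, each near 0 reads in MM1.S, are among the 17.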
